A study of Mus musculus with 6 samples.

Results

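The genes examined were 7 ligands of the EGF family (Areg, Ereg, Hbegf, Tgfa, Btc, Nrg1, and Epgn) and 3 of their receptors (Egfr, Erbb2, and Erbb3), chosen by gene symbol in a table of FPKM values. All 10 were found among the 27546 genes of the table, and all 10 had a mean of at least 0.5 FPKM over the 6 libraries and entered the test. FPKM correct the fragments of a gene for its length and for sequencing depth, so levels can be compared between genes. The libraries came from the colon of 3 WT mice and 3 Gm31629-/- littermates on the C57BL/6 strain, and each library is treated here as 1 mouse. Gm31629-/- mice carry a deletion on chromosome 1, not limited to a cell type, that targets the long noncoding RNA Gm31629. All 6 mice were 8 weeks old, drank 3% DSS (dextran sulfate sodium, which injures the colonic epithelium) over 7 days, and were killed on day 8. Genotypes were thus compared under injury, and no untreated mice were included. The study's methods speak of RNA pooled from the mice of a genotype, whereas the table gives a value for each sample. That each sample is a separate mouse is thus a reading of the labels.

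Ligands of the EGF family are made as transmembrane precursors, which metalloproteases cut at the cell surface, and the freed part binds ErbB receptor tyrosine kinases on the same or nearby cells. Areg (amphiregulin), Tgfa, and Epgn (epigen) bind EGFR, Ereg (epiregulin), Btc (betacellulin), and Hbegf (heparin-binding EGF-like growth factor) bind EGFR and ERBB4, and Nrg1 (neuregulin 1) binds ERBB3 and ERBB4. ERBB2 has no known ligand and ERBB3 has little kinase activity, so both signal as partners in receptor dimers, through the RAS-ERK and PI3K-AKT cascades. In the gut this family is known for its part in crypt cell proliferation and in wound repair of the epithelium.

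To show the sequence from which the members that passed the test start, the promoters found for 4 of them in RefSeq (GRCm38.p6) are given, from 250 bases before to 50 bases after the start site. Capitals mark a cAMP response element, TGACGTCA, and Areg and Btc rose while Tgfa and Erbb2 fell in Gm31629-/- mice.
Areg, chr5:91139349-91139648, plus strand: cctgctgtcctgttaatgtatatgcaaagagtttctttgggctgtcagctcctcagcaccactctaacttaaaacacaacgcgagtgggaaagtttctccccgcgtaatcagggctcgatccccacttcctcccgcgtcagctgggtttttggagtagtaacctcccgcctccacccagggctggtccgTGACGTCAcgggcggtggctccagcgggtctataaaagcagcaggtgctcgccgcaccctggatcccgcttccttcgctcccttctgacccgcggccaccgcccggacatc
Btc, chr5:91402945-91403244, minus strand: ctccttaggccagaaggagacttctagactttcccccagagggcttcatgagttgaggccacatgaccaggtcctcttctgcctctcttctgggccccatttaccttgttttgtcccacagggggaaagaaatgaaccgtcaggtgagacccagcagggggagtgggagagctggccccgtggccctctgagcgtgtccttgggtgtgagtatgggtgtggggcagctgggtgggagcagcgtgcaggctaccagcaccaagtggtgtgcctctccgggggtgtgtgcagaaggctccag
Tgfa, chr6:86194972-86195271, plus strand: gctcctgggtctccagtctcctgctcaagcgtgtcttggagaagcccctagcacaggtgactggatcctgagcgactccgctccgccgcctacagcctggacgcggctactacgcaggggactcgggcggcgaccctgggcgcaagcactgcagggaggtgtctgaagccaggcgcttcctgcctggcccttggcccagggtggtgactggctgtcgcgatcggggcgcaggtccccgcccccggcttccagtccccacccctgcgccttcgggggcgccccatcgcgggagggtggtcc
Erbb2, chr11:98412234-98412533, plus strand: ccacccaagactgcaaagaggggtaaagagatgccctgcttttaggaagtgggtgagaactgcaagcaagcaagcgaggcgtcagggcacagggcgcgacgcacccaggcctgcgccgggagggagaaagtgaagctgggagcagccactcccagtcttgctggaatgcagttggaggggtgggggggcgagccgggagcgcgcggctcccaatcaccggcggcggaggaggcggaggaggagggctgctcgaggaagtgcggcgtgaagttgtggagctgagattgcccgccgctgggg
The Areg promoter held this palindrome, with its first base 61 bases upstream of the start site, and 2.03% of 27025 genes with a promoter of this length held it. The letters searched on both strands were TGACGTCA, the AP-1 letters TGANTCA (8.97% of genes), and the E2F letters TTTCGCGC, TTTGGCGC, and TTTCCCGC (2.12% of genes). No other match was found in the promoters of the 6 members that were searched, which also included Epgn and Egfr. The promoters of Ereg, Hbegf, Nrg1, and Erbb3 were not searched, so whether they hold these letters is not known here. A match is a description of letters and not of a factor bound there.

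By limma on log2(FPKM + 1), 3 of the 10 members rose and 2 fell in Gm31629-/- mice at an adjusted p under 0.05, where 28.9% of the 14657 genes tested were higher, 14.6% were lower, and 43.5% were either. Of the members, 3 were higher and 1 was lower by more than 2-fold as well, against 18.4% and 4.64% of all genes. The 3 that rose, Areg, Ereg, and Btc, were all ligands, and the 2 that fell were the ligand Tgfa and the receptor Erbb2. For 8 of the 10 members the values of WT and Gm31629-/- mice were fully separate, 5 with Gm31629-/- mice above and 3 with them below, against 36.3% above, 21.5% below, and 57.8% in either direction over all genes. Of the 5 above, Nrg1 and Epgn had WT means of 0.458 and 0.131 FPKM and reached the minimum for the test only through Gm31629-/- mice. A higher mean in Gm31629-/- mice was thus fixed for them by the filter, and both enter the medians that follow. The median log2 fold change was 0.68 over the 10 members, 1.01 over the ligands, and −0.71 over the receptors, against 0.15 over all genes tested. With only 3 mice a group, an exact permutation test of a single gene cannot give a p below 0.1, so adjusted p-values here come from the limma fit over all genes. Because 1 is added to each value, this scale shrinks the change of scarce genes.

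Of the libraries, those of WT mice resembled each other more (correlation of log2 values across genes 0.979 to 0.985) than those of Gm31629-/- mice (0.915 to 0.937), and genes are not independent replicates. The depth recovered from the values was 18005954 to 18795144 fragments per library. Gm31629-/- mouse 1 stood apart in that 4 Y-linked genes were listed there, at 2.03 to 15.4 FPKM, and were at 0 in the other 5 libraries, while Xist was at 0.00606 FPKM there and at 8.35 to 13.8 FPKM in the others. The methods name male mice, whereas by these genes only the library of mouse 1 has a male pattern and the other 5 have a female one. The Gm31629-/- group is thus mixed by this measure. Leaving out Gm31629-/- mouse 1 gave 4 members higher and 3 lower at an adjusted p under 0.05. Of the pathway genes described last, 28 were higher and 4 lower. Over all genes, 2705 were higher and 766 lower by more than 2-fold as well in that fit, against 2704 and 680 with all mice. That threshold is stricter than the one used for the counts of members and pathway genes. Log2 fold changes without that mouse were 0.85 for Areg, 0.88 for Btc, and −1.24 for Erbb2, and those of the other members stand beside their values. Marker lists were tested with all 6 mice. Smooth muscle markers were nearly absent from the WT libraries, although the tissue was labelled as colon, with a sum over 12 markers of 21.8 to 38.6 FPKM against 1171 to 1813 FPKM in Gm31629-/- mice.

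**Figure D1:**
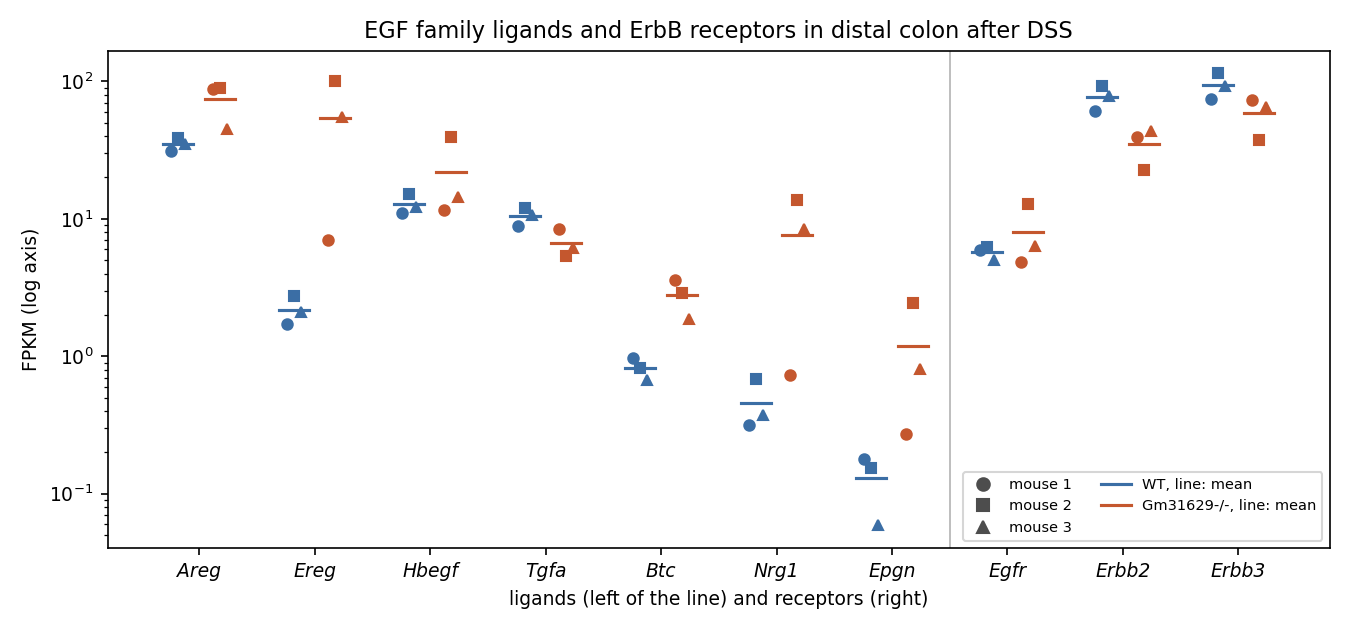
FPKM of each ligand and receptor in the 6 mice, on a log axis, with WT in blue, Gm31629-/- in orange, a marker shape per mouse number, and lines at the group means. Areg, Ereg, Btc, Nrg1, and Epgn were higher in all 3 Gm31629-/- mice than in any WT mouse, and Tgfa, Erbb2, and Erbb3 were lower.

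Areg (ENSMUSG00000029378, chromosome 5, 91139599 to 91148432 of GRCm38), an EGFR ligand induced in many settings of tissue repair, was the most abundant ligand in both groups by mean FPKM. Its FPKM was 31.0, 38.7, and 35.3 in WT mice 1 to 3 and 88.7, 89.4, and 45.0 in Gm31629-/- mice 1 to 3, from 697 to 2005 fragments per library. All Gm31629-/- mice lay above all WT mice, with mouse 3 nearest to them. The means were 34.98 ± 3.84 and 74.4 ± 25.4 FPKM (SD, n = 3 each), and the difference was 1.01 on the log2 scale (limma, standard error 0.28, adjusted p = 0.0236). The direction was the same without any mouse, but the adjusted p was 0.05004 to 0.0798 when WT mouse 1, 2, or 3 or Gm31629-/- mouse 1 or 2 was left out, and 0.00239 without Gm31629-/- mouse 3.

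Ereg (ENSMUSG00000029377, chromosome 5, 91074622 to 91093646), a ligand of EGFR and ERBB4, differed most of the 10. It had 1.70, 2.73, and 2.09 FPKM in WT mice and 7.06, 101, and 55.5 FPKM in Gm31629-/- mice. Gm31629-/- mouse 1 was thus close to the WT mice, while mice 2 and 3 were far above them. The fragments numbered 130 to 203 in WT libraries and 536, 7667, and 4207 in Gm31629-/- libraries. The group means were 2.17 ± 0.520 and 54.4 ± 46.8 FPKM (SD, n = 3 each), which differed by 3.51 on the log2 scale (limma, standard error 0.84, adjusted p = 0.0143). Without Gm31629-/- mouse 1 the log2 fold change was 4.59 (limma adjusted p = 0.000315), and without WT mouse 3 or Gm31629-/- mouse 3 the adjusted p was 0.0529 or 0.0537. The first bases of Ereg overlap Gm19610, an antisense gene, which rose from 0.133 to 0.391 FPKM in WT mice to 3.73 to 6.54 FPKM in Gm31629-/- mice (log2 fold change 2.40, limma adjusted p = 0.000502). Whether the counting used strand is not given in the sources used here, so reads in the shared stretch cannot be assigned.

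Btc (ENSMUSG00000082361, chromosome 5, 91357261 to 91402994) was a minor ligand by level. Its FPKM was 0.969, 0.823, and 0.671 in WT mice, and in Gm31629-/- mice it was 3.57, 2.90, and 1.87, with every Gm31629-/- mouse above every WT mouse. Btc differed by 1.03 on the log2 scale (limma, standard error 0.21, adjusted p = 0.00779). The adjusted p was under 0.05 in 6 of 6 fits that each left out 1 mouse (adjusted p 0.00392 to 0.0398).

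Epgn (ENSMUSG00000035020, chromosome 5, 91027464 to 91035215) was the scarcest member in both groups. Its FPKM was 0.179, 0.154, and 0.0589 in WT mice, from 6, 5, and 2 fragments, and 0.271, 2.46, and 0.813 in Gm31629-/- mice, from 9, 82, and 27 fragments. The groups were separate, but mouse 1 of the Gm31629-/- group was within a few fragments of the WT mice, which is not distinguishable at this depth. Its log2 fold change of 0.82 did not pass (standard error 0.34, limma adjusted p = 0.0903). The adjusted p was 0.0190 without Gm31629-/- mouse 1, where the log2 fold change was 1.15, and 0.0488 with a pseudocount of 0.1 in place of 1, where the log2 fold change was 2.09.

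Epgn, Ereg, Areg, and Btc lie next to each other on chromosome 5, within 375531 bases and with no other protein-coding gene of GENCODE M21 between them. All 4 had a positive log2 fold change and no overlap between the groups, as had 36.3% of all genes tested. Epgn, however, reached the minimum for the test only through Gm31629-/- mice. The gene on one flank, Mthfd2l, a mitochondrial enzyme of folate metabolism, had 0.601 to 0.822 FPKM in WT mice and 0.746 to 1.17 FPKM in Gm31629-/- mice, which overlapped (log2 fold change 0.24, limma adjusted p = 0.261). The gene on the other flank, Parm1, rose from 64.7 to 81.5 FPKM in WT mice to 102 to 123 FPKM in Gm31629-/- mice (log2 fold change 0.56, limma adjusted p = 0.0243). The positive sign was thus not limited to the 4 ligands in this stretch. The order of the mice differed between the neighbors, with Gm31629-/- mouse 1 lowest of its group for Epgn and Ereg, highest for Btc, and level with mouse 2 for Areg.

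Tgfa (ENSMUSG00000029999, chromosome 6, 86195223 to 86275719), an EGFR ligand made by differentiated colon epithelium, was the ligand that fell. It had 8.87, 12.1, and 10.7 FPKM in WT mice and 8.45, 5.37, and 6.13 FPKM in Gm31629-/- mice. The highest Gm31629-/- mouse, mouse 1, lay just below the lowest WT mouse. Tgfa differed by −0.61 on the log2 scale (limma, standard error 0.20, adjusted p = 0.0440). This adjusted p was close to the threshold and was 0.0589 to 0.136 when WT mouse 1, 2, or 3 or Gm31629-/- mouse 2 or 3 was left out, and 0.0177 without Gm31629-/- mouse 1, where the difference was −0.77.

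Hbegf (ENSMUSG00000024486), which encodes a ligand that also binds heparan sulfate, did not pass. Its FPKM was 11.1, 15.1, and 12.3 in WT mice, and in Gm31629-/- mice it was 11.6, 39.3, and 14.5. The groups overlapped, and only Gm31629-/- mouse 2 was above the range of WT mice. The log2 fold change was 0.53 (standard error 0.42, limma adjusted p = 0.327), and it was 0.02 without Gm31629-/- mouse 2 and 0.86 without mouse 1 (limma adjusted p = 0.932 and 0.125).

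Nrg1 (ENSMUSG00000062991, chromosome 8, 31814551 to 32884029), the ligand of ERBB3 and ERBB4 that stromal cells of the gut are known to make, had 0.313, 0.687, and 0.375 FPKM in WT mice and 0.724, 13.6, and 8.47 FPKM in Gm31629-/- mice. Fragments numbered 60, 128, and 73 in WT libraries and 138, 2603, and 1611 in Gm31629-/- libraries. Mice 2 and 3 of the Gm31629-/- group were far above WT mice, and mouse 1 was level with WT mouse 2. The Nrg1 log2 fold change of 2.098 did not pass (standard error 0.72, limma adjusted p = 0.0502). Without Gm31629-/- mouse 1 it was 3.02 (limma adjusted p = 0.000479), and a pseudocount of 0.1, rescaling each library to the same sum, or the replicate number as a block gave adjusted p of 0.0360, 0.0488, and 0.0346.

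Markers of stromal and immune cells, other than mast cells, were higher in the same libraries. The counts that follow stand against 28.9% higher and 14.6% lower over all genes tested. All 10 fibroblast markers rose, and their sum was 25.1, 46.2, and 30.4 FPKM in WT mice and 230.9, 679, and 429.8 FPKM in Gm31629-/- mice 1 to 3. None of the 10 was at 0 in any library. The order of the 6 mice by this sum was also their order by Nrg1 and by Ereg. The sum of endothelium markers gave the same order of all 6 mice, so the order was not particular to fibroblast markers. Gm31629-/- mouse 1, however, had a fibroblast sum well above that of WT mouse 2 and nearly the same Nrg1. Of the macrophage markers, 9 of 10 rose, with a sum of 99.8 to 110.2 FPKM in WT mice and 625, 1438, and 731 FPKM in Gm31629-/- mice 1 to 3. Of 9 tested neutrophil markers, 9 rose (sum 72.5 to 130.6 against 518 to 1040 FPKM). Ly6g made up most of the neutrophil sum, at 66.7 to 121 FPKM in WT mice and 288 to 965 FPKM in Gm31629-/- mice. That sum thus mainly describes Ly6g. All 8 endothelium markers rose (sum 2.80 to 7.30 against 50.7 to 109.7 FPKM), as did all 11 tested smooth muscle markers and 10 of 11 tested markers of enteric neurons and glia (sum 2.85 to 5.44 against 42.9 to 147.1 FPKM). Of 5 tested mast cell markers 1 rose (20%, below the share over all genes). The sum over all 8 mast cell markers was 14.8 to 23.1 FPKM in WT mice and 10.5 to 28.1 FPKM in Gm31629-/- mice. Squamous epithelium markers, which could enter from the anal canal, summed to 0.566 to 0.638 FPKM in WT mice and 1.62 to 4.90 FPKM in Gm31629-/- mice, with Krt5, Trp63, and Dsg3 at 0 in all WT mice and Krt5 at 0.148 FPKM or less in Gm31629-/- mice. In WT mice, the neuronal marker Elavl4 and the neutrophil marker Elane were among those also at 0. In tissue RNA, fewer cells of a type and less RNA per cell cannot be told apart. The part of these cell types in the ligand differences was not tested.

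**Figure D2:**
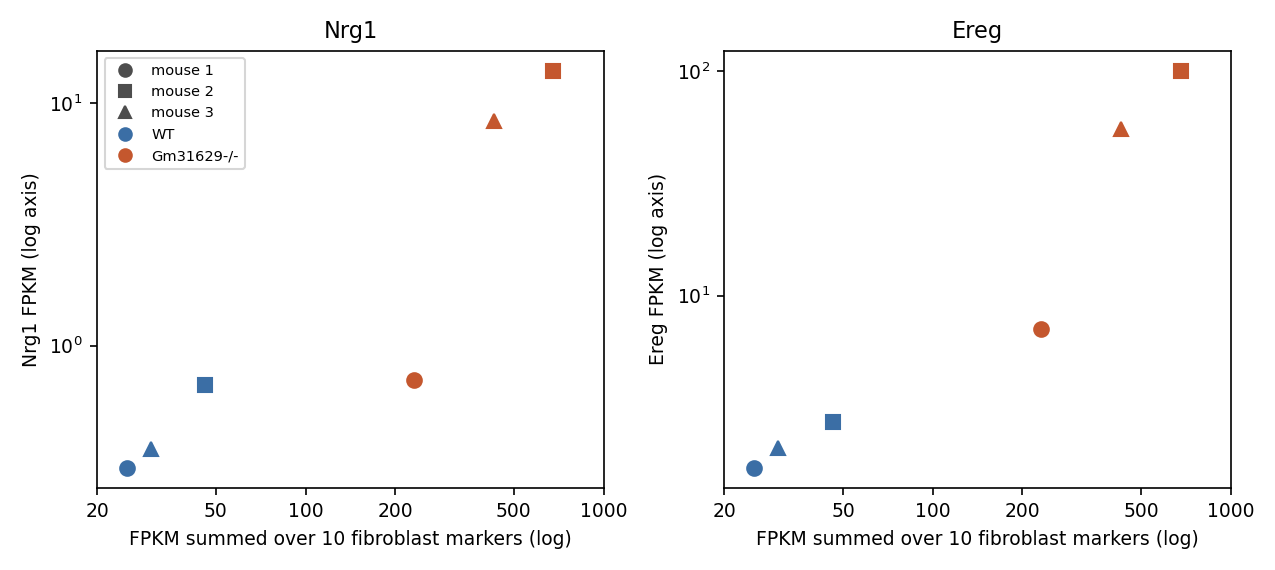
FPKM of Nrg1 (left) and Ereg (right) in each mouse against the FPKM summed over 10 fibroblast markers, both on log axes, with WT in blue, Gm31629-/- in orange, and a marker shape per mouse number. Gm31629-/- mouse 1 has a fibroblast sum of 230.9 FPKM and the lowest Nrg1 (0.724 FPKM) and Ereg (7.06 FPKM) of its group.

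Summed over the 7 ligands, the level was 54.1, 70.3, and 61.4 FPKM in WT mice and 120.3, 254, and 132 FPKM in Gm31629-/- mice 1 to 3. This sum is a description of chosen genes and was not tested. In WT mice the composition was nearly constant, with Areg at 55.0% to 57.4% of the sum, Hbegf at 19.96% to 21.5%, Tgfa at 16.4% to 17.5%, and Ereg at 3.15% to 3.89%. The Gm31629-/- mice differed among themselves. In mouse 1, Areg made up 73.7% and Ereg 5.86%, whereas in mice 2 and 3 Areg made up 35.2% and 34.0% and Ereg 39.7% and 42.0%. Tgfa made up 7.02%, 2.12%, and 4.64% in Gm31629-/- mice 1 to 3, below the share in every WT mouse, and Hbegf made up 9.61%, 15.5%, and 11.0%, also below. Nrg1 made up 0.579% to 0.977% of the sum in WT mice, 0.602% in Gm31629-/- mouse 1, and 5.37% and 6.41% in mice 2 and 3.

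**Figure D3:**
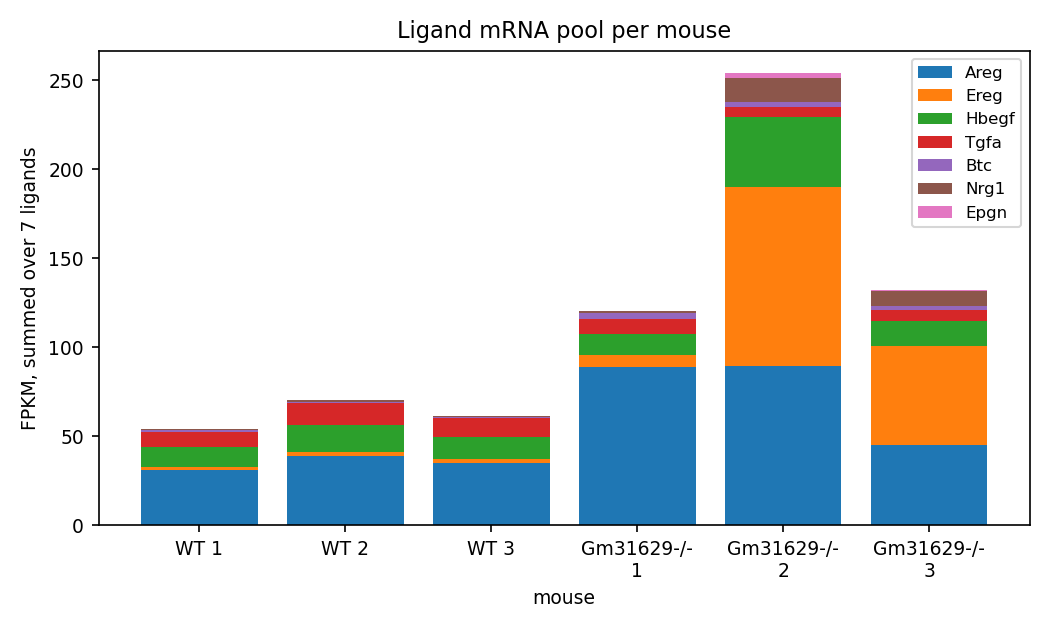
FPKM of the 7 ligands stacked for each mouse, from 0. The sums are 54.1 to 70.3 FPKM in WT mice and 120.3 to 254 FPKM in Gm31629-/- mice, and the Ereg part is large in Gm31629-/- mice 2 and 3 only.

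Of the receptors, Erbb2 (ENSMUSG00000062312, chromosome 11, 98412470 to 98437716), which encodes the dimer partner without a ligand, fell. Its FPKM was 61.0, 92.1, and 78.4 in WT mice, and in Gm31629-/- mice it was 39.2, 22.8, and 43.9, from 2189 to 8643 fragments per library. The groups did not overlap, and Gm31629-/- mouse 2 was lowest. The means were 77.2 ± 15.6 and 35.3 ± 11.1 FPKM (SD, n = 3 each), and Erbb2 differed by −1.14 on the log2 scale (limma, standard error 0.27, adjusted p = 0.0144). The adjusted p was 0.0508 without WT mouse 2 and 0.0562 without WT mouse 3, and under 0.05 in the other 4 such fits. Genes near Erbb2 were examined after their values were seen, and 2 of them also fell. Pgap3, for GPI anchor remodeling, had 11.1 to 13.8 FPKM in WT mice and 3.25 to 7.11 FPKM in Gm31629-/- mice (log2 fold change −1.18, limma adjusted p = 0.00860), and Grb7, an adaptor that binds ERBB2, had 33.5 to 46.0 and 15.2 to 31.6 FPKM (log2 fold change −0.95, limma adjusted p = 0.0283). Mien1, which overlaps the last bases of Erbb2 on the other strand, had 2.17 to 5.34 FPKM in WT mice and 2.69 to 4.23 FPKM in Gm31629-/- mice (limma adjusted p = 0.869).

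Erbb3 (ENSMUSG00000018166, chromosome 10, 128567523 to 128589652), the neuregulin receptor, was the most abundant member in WT mice, although its range overlapped that of Erbb2. It had 74.4, 115, and 93.1 FPKM in WT mice and 73.9, 37.2, and 64.9 FPKM in Gm31629-/- mice. WT mouse 1 and Gm31629-/- mouse 1 were almost equal, so that the groups only just did not overlap. Its difference of −0.71 on the log2 scale did not pass (standard error 0.28, limma adjusted p = 0.0811). The adjusted p was 0.0474 without Gm31629-/- mouse 1, where the difference was −0.90, and 0.0491 after rescaling by the median ratio.

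Egfr (ENSMUSG00000020122, chromosome 11, 16752203 to 16918158), the receptor for 6 of the 7 ligands, had 5.89, 6.29, and 5.02 FPKM in WT mice and 4.85, 12.9, and 6.36 FPKM in Gm31629-/- mice. The groups overlapped, and mouse 2 alone was far above. The log2 fold change was 0.33 (standard error 0.31, limma adjusted p = 0.423) and had the opposite sign, −0.03, without that mouse. Without mouse 1 it was 0.59 (limma adjusted p = 0.143). Egfr was 2.84% to 4.17% of the sum of the 3 receptors in WT mice. In Gm31629-/- mice 1 to 3 it was 4.11%, 17.7%, and 5.53%. The receptor sum was 141.3, 213, and 176.6 FPKM in WT mice and 117.9, 72.9, and 115.1 FPKM in Gm31629-/- mice.

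Erbb2, Erbb3, and Tgfa are known from epithelial cells. Of 15 epithelium markers 7 fell, none rose, and 8 did not pass, against 14.6% lower over all genes. Epcam and Cdh1, which define epithelium, were nearly level, with ratios of the means of 1.00 and 0.975, whereas the keratins Krt8 and Krt19, which are abundant, had ratios of 0.486 and 0.504 (these 4 were named after their values were seen). The sum of the 15 was 12970 to 14170 FPKM in WT mice and 8094 to 9589 FPKM in Gm31629-/- mice, a ratio of the means of 0.645. Krt8 (means of 4198 and 2042 FPKM) and Krt19 (2067.5 and 1042 FPKM) made up much of this sum and of its fall. Ratios of single markers ran from 0.16 for Cdx2 to 1.41 for Tspan8, both named after their values were seen. Of the 15, 3 had a positive log2 fold change. None of the 15 was at 0 in any library. The ratio of the means was 0.457 for Erbb2, 0.624 for Erbb3, and 0.630 for Tgfa. The part of the epithelium in these differences was not tested.

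**Figure D4:**
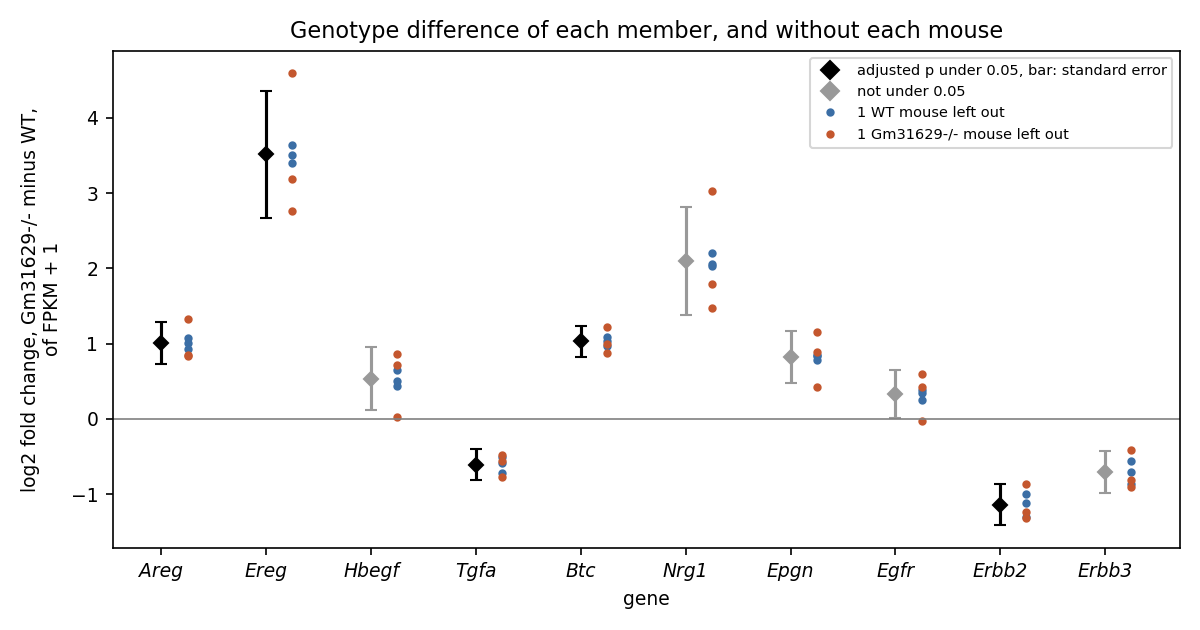
Log2 fold change of FPKM + 1, Gm31629-/- minus WT, for each member (diamonds with the limma standard error, black where the adjusted p was under 0.05), with the values found when 1 mouse was left out beside it (blue, a WT mouse; orange, a Gm31629-/- mouse). All members other than Egfr keep their sign in all 6 such fits, and Ereg spans 2.76 to 4.59.

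By level, the order in WT mice was Erbb3, Erbb2, Areg, Hbegf, Tgfa, Egfr, Ereg, Btc, Nrg1, and Epgn. Neighbors in this order overlapped for Erbb3 and Erbb2, for Hbegf and Tgfa, and for Btc and Nrg1, and were separate otherwise. In Gm31629-/- mice the order by mean FPKM was Areg, Erbb3, Ereg, Erbb2, Hbegf, Egfr, Nrg1, Tgfa, Btc, and Epgn, and only Tgfa and Btc were separate from each other among these neighbors. Ereg went from 67.4% to 96.4% and Nrg1 from 53.4% to 78.5% as the share of listed genes with a lower mean, while Erbb2 went from 97.4% to 94.2%.

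The remaining ligands of the family were scarce and below the minimum for the test. Nrg3 was at 0 in each WT mouse, which allows up to 3 fragments per library, and had 25, 28, and 6 fragments in Gm31629-/- mice 1 to 3. Nrg2 had 0.0175 to 0.0691 FPKM in WT mice and 0.246 to 0.353 FPKM in Gm31629-/- mice. Nrg4 had 0.133 to 0.166 and 0.143 to 0.242 FPKM, and Egf had 0.310 to 0.494 and 0.149 to 0.940 FPKM, and both overlapped between the groups. Erbb4 was not analysed here.

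Among 10 genes for ligand shedding and trafficking, 9 were tested, 6 rose and none fell (66.7% higher, against 28.9% higher and 14.6% lower over all genes), with a median log2 fold change of 0.76. Adam17, the main sheddase of Areg and Hbegf, which is named here after its values were seen, had 4.05 to 4.67 FPKM in WT mice and 6.01 to 10.2 FPKM in Gm31629-/- mice (log2 fold change 0.68, limma adjusted p = 0.0311). The metalloproteases Adam19 and Adam8 rose by 1.95 and 1.57 on the log2 scale (limma adjusted p = 0.000799 and 0.0177), and Nkd2, a carrier of the TGF-alpha precursor to the cell surface, by 1.42 (limma adjusted p = 0.00246). Nkd2 had 0.0224 to 0.104 FPKM in WT mice and 1.31 to 2.80 FPKM in Gm31629-/- mice. With WT means of 0.0567 and 0.451 FPKM, Nkd2 and Adam19 reached the minimum for the test only through Gm31629-/- mice. Rhbdf1 and Rhbdf2, which bring ADAM17 to the surface and were also named after their values were seen, overlapped between the groups (limma adjusted p = 0.913 and 0.469).

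Of 22 genes for feedback inhibition and receptor down-regulation, 10 rose and none fell (45.5% higher, against 28.9% higher and 14.6% lower over all genes), with a median of 0.73. Among the 10, Spred3, named after its values were seen, had a WT mean of 0.198 FPKM. It reached the minimum for the test only through Gm31629-/- mice. Spry4 and Spry1, inhibitors of RAS-ERK signaling that ERK induces, rose by 1.91 and 1.70 (limma adjusted p = 0.0200 and 0.000741). Spry4 had 1.06, 1.85, and 1.44 FPKM in WT mice and 3.21, 18.1, and 8.41 FPKM in Gm31629-/- mice, with mouse 1 lowest of its group and mouse 2 highest, as for Ereg. Spry1 had 1.86 to 2.86 FPKM in WT mice and 9.13 to 11.6 FPKM in Gm31629-/- mice. Socs5, which promotes EGFR degradation, rose by 1.38 (limma adjusted p = 0.00182). Errfi1, which binds and inhibits the EGFR kinase, was 29.0 to 38.7 FPKM in WT mice and 40.1, 109, and 39.0 FPKM in Gm31629-/- mice and did not pass (limma adjusted p = 0.146). Lrig1, a negative regulator of ErbB receptors in crypts, overlapped between the groups (log2 fold change −0.07, limma adjusted p = 0.870). Errfi1 and Lrig1 were named after their values were seen.

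Of 28 adaptors and kinases of the cascades, 6 rose, 3 fell, and 19 did not pass, with a median of 0.20. Both shares, 21.4% higher and 10.7% lower, were below those over all genes, 28.9% and 14.6%. Pik3ca, a catalytic subunit of PI3K, rose by 1.07 on the log2 scale (limma adjusted p = 0.00283). The 3 that fell, named after their values were seen, were Grb7, Mapk3, and Pik3r2, none by over 1 on the log2 scale. Mapk3, which encodes ERK1, had 304 to 371 FPKM in WT mice and 170 to 246 FPKM in Gm31629-/- mice (log2 fold change −0.74, limma adjusted p = 0.0162).

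Genes known to respond to ERK differed in direction. Of 14, 3 rose, 3 fell, and 8 did not pass, or 21.4% in each direction against 28.9% higher and 14.6% lower over all genes. Ier3, Phlda1, and Junb rose by 1.35, 1.04, and 1.02 (limma adjusted p = 0.0184, 0.0422, and 0.0407). The cyclin gene Ccnd1 and the ETS factor Etv5 fell by 2.51 and 1.14 on the log2 scale (limma adjusted p = 0.00223 and 0.0163), as did Myc by 1.14 (limma adjusted p = 0.0395), for which the groups overlapped and which was named after its values were seen. Ccnd1 had 16.3 to 37.0 FPKM in WT mice and 2.56 to 6.04 FPKM in Gm31629-/- mice, and Etv5 5.69 to 9.80 and 1.93 to 4.49 FPKM. Over the 73 tested genes of these pathway lists, 25 rose and 6 fell (17 and 10 after rescaling by the median ratio), shares of 34.2% and 8.22% against 28.9% and 14.6% of all genes. The counts varied with the mouse left out. They were 13, 15, and 10 higher and 4, 3, and 1 lower without WT mouse 1, 2, and 3. Without Gm31629-/- mouse 1, 2, and 3 they were 28, 20, and 19 higher and 4, 5, and 5 lower. Over all genes, 2285 to 2892 were higher in these fits at the stricter threshold that adds a log2 fold change above 1, against 2704 with all mice. The pathway counts use an adjusted p under 0.05 alone, so their variation cannot be set against these numbers. Counts over all genes by adjusted p alone are not given here for these fits. Why the counts varied was not tested.

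**Figure D5:**
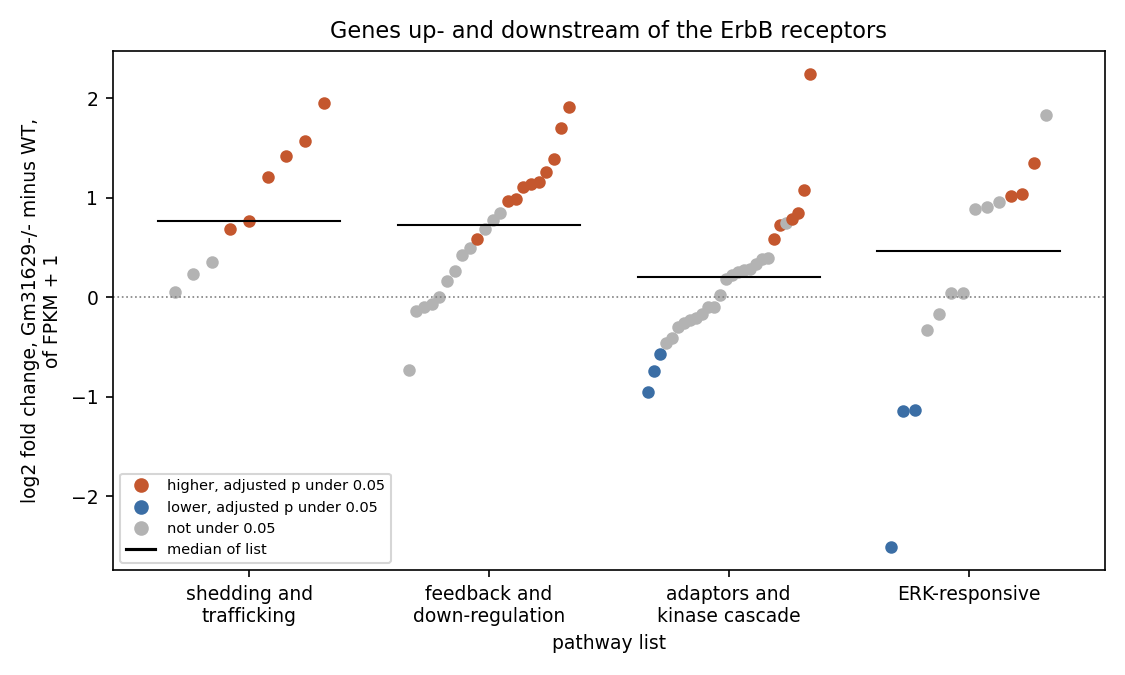
Log2 fold change of FPKM + 1, Gm31629-/- minus WT, of each tested gene in 4 pathway lists, ordered within a list, with orange for genes higher and blue for genes lower at an adjusted p under 0.05, gray for the rest, and a black line at the list's median. The 9 shedding genes are all above 0, whereas ERK-responsive genes lie on both sides, from −2.51 to 1.83.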

How the data were processed

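Colon RNA of 3 WT and 3 Gm31629-/- mice was sequenced, and libraries were grouped by the genotype in their labels. The authors deposited FPKM for 27546 genes, and the submitters' processing notes name HISAT2 2.1.0, HTSeq 0.6.0, and GRCm38 without saying what each was used for. The annotation and any filter are not given in the sources used here, nor is the use of strand. The study's methods name DEGseq, which needs counts and was not repeated.

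Symbols, positions, and exon lengths came from GENCODE M21 (GRCm38) and matched 27488 identifiers. Fragments per gene were recovered from FPKM, exon length, and depth, and 96.3% to 97.2% of values up to 20 fragments came out within 0.1 of a whole number. For Hbegf, values in 4 of 6 libraries did not, so no fragments are given for it. Floors and fragments cover counting error only. Nothing in the labels ties libraries to separate extractions, so p-values measure the spread between these samples.

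Genes averaging 0.5 FPKM or more over the 6 libraries (14657) were tested on log2(FPKM + 1) by moderated linear models with an intensity trend (limma 3.58.1, R 4.3.3), on both sides, with Benjamini-Hochberg adjustment. A gene below 0.5 FPKM in 1 group could enter only if it was higher in the other group, which holds for all genes tested. Rose and fell mean an adjusted p under 0.05, and called adds a log2 fold change above 1 or below −1. The scripts were tested on simulated data. The members and lists were chosen with earlier results of these data known. Genes named are the members, their family, and in each pathway list up to 3 called genes in each direction without overlap between groups, with others chosen after their values were seen and marked so. The flanking genes of the ligand cluster and the leading or absent markers of a list are also named. As alternatives, each mouse was left out in turn, a pseudocount of 0.1 was added, the filter was dropped or raised to 5 FPKM, libraries were rescaled to the same sum or by the median ratio, the trend was omitted, the replicate number entered as a block, and voom was run on recovered fragments. Figures were drawn with matplotlib 3.10.9. Protein sequences were not used here, and some genes of the lists are counted but not reported here by name.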

Additional observations from a re-analysis of the deposited data

How the results depend on the processing

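Of 137 log2 fold changes of members under the alternatives, 136 kept their sign, the exception being Egfr without Gm31629-/- mouse 2 (−0.033, with 0.251 to 0.593 without any other mouse). Of these 137, 16 lost and 8 gained an adjusted p under 0.05. A pseudocount of 0.1 gave 5 members higher in place of 3, and 3700 genes called higher over all genes in place of 2704. No filter gave 1 member and 3 pathway genes lower. A minimum mean of 5 FPKM gave 956 genes called higher in place of 2704 and 15 pathway genes higher, with fewer genes tested. The median ratio gave 10 pathway genes lower and moved the median of all genes from 0.15 to 0.02. With each mouse left out, 1 to 4 members were higher and 0 to 3 lower, and 10 to 28 pathway genes were higher and 1 to 5 lower. Over all genes, 2285 to 2892 were called higher and 513 to 766 lower in these fits. Called counts also need a log2 fold change above 1 or below −1, unlike the counts of members and pathway genes, so the 2 kinds cannot be set against each other. The ligand sum was 2.04 to 3.12 times that of WT mice with each mouse left out, against 2.72 with all mice. For the other results the cause of a change was not tested. The correlation of same-numbered deviations was 0.036, −0.108, and 0.014, within the −0.133 to 0.116 of differently numbered ones. No pairing by replicate number was thus seen, but with 3 mice a group these values cannot exclude one. With the number as a block, 4 members were higher and 1 was lower, and Tgfa had an adjusted p of 0.0963. Few fragments limit the values of Epgn and Nrg3.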
